A study of Mus musculus with 8 samples.

Results

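The genes that carry the calcium signal of the T cell receptor to the nucleus were examined through 9 members, of 15139 named genes tested. They are Orai1, Stim1 and Stim2 of calcium entry, Ppp3ca and Ppp3cb of calcineurin, its inhibitor Rcan1, and the transcription factors Nfatc1, Nfatc2 and Nfatc3. They were taken by name: a probe counted when the array's annotation tied it to a RefSeq transcript of the gene, and of the 14 probes found, the brightest of each gene over the 8 arrays was used. All 9 probes were well above background on all 8 arrays and passed the filter on dim probes. The study measured RNA of mouse splenic T cells in 4 groups of 2 one-colour arrays. These were Lsp1-/- (KO) cells stimulated for 6 hours with anti-CD3/CD28 antibodies, wild-type (WT) cells stimulated the same way, KO cells in medium and WT cells in medium. Lsp1 encodes a leukocyte protein that binds F-actin, and the series concerns how that protein regulates migration of T cells in rheumatoid arthritis. The KO mice carried the Lsp1 deletion on a C57BL/6 background (backcross generation 10), the controls were C57BL/6 mice (Lsp1+/+) matched for age and sex, and mice were between 8 and 12 weeks old unless specified otherwise. How T cells were separated from the other spleen cells, and how long the cells in medium were kept, is not described in the labels.

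As background, engagement of the T cell receptor empties the calcium store of the endoplasmic reticulum, and the STIM proteins in its membrane sense the loss and open ORAI channels in the plasma membrane. The calcium that enters binds calmodulin and switches on calcineurin, a phosphatase that strips phosphates from NFAT proteins so that they move into the nucleus. There NFAT binds DNA at a GGAAA core, often beside AP-1, and drives cytokine genes such as Il2. Much of this pathway runs through protein modification and movement, which an RNA measurement does not see.

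Promoter sequence is shown for Orai1 and Rcan1. Orai1 alone passed the test for a change on stimulation in the main fit, given below. Rcan1 is known to be driven by NFAT in several cell types. The windows are the 250 bases before an annotated start in RefSeq (GRCm38.p6), and 7 of the 9 members had at least 1. Ppp3ca and Nfatc1 had none. Capitals mark GGAAA read on either strand, so the letters in capitals are GGAAA or TTTCC. The 3 windows shown are Orai1 at chr5:123014824-123015073 on the plus strand, and both annotated starts of Rcan1, on the minus strand, at chr16:92400079-92400328 (inner) and chr16:92466170-92466419 (outer).

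Orai1: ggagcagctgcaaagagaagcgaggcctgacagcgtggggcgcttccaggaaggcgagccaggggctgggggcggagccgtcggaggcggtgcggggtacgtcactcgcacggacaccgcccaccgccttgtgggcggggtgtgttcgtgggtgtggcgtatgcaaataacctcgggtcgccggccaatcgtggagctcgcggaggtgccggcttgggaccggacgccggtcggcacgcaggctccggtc

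Rcan1 inner start: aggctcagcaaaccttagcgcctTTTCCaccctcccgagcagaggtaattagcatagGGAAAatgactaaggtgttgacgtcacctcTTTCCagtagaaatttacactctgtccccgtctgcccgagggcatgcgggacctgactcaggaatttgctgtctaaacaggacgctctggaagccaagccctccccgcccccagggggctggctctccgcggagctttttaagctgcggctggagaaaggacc

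Rcan1 outer start: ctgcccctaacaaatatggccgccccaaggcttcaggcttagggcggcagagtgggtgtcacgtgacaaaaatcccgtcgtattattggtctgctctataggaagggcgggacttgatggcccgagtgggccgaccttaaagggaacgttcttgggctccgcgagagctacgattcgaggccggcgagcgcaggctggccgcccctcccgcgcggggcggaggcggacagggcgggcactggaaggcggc

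The Orai1 window held 0 matches, the inner Rcan1 window 3 and the outer Rcan1 window 0. Of all 32851 windows of this length, 55.6% held at least 1 match, the median window held 1, and 6.39% held 3 or more. G and C made up 70.8% of the Orai1 window, 56.4% of the inner and 64.8% of the outer Rcan1 window, against a median of 52.4%. Among the other members, Ppp3cb and 1 window of Nfatc2 held 3 matches, the second window of Nfatc2 and 1 of Nfatc3 held 1, and Stim1, Stim2 and the second window of Nfatc3 held 0. A match describes these letters and is not a binding site.

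Values are log2 of the scanner's processed signal minus the array's 75th percentile, so 0 is the 75th percentile of signal on that array. Levels are compared between arrays for 1 probe, never between probes. Genes were tested with limma, p-values were adjusted by Benjamini-Hochberg over all 15139 genes, and a gene was called at an adjusted p below 0.05. Lsp1 was lower on all 4 KO arrays, 3.68 and 3.65 in stimulated KO cells against 7.05 and 6.98 in stimulated WT cells, and 3.64 and 3.48 in KO medium against 7.47 and 7.23 in WT medium. In the main fit the Lsp1 difference was called, at -3.35 after stimulation (limma adjusted p = 0.00248) and -3.79 in medium (limma adjusted p = 0.00117). It was called in 14 of 17 alternative settings after stimulation and in 15 of 17 in medium. Without both KO replicate 2 arrays, which left 1 KO array a condition, it was not called. The difference was then -3.33 after stimulation and -3.71 in medium. Which part of Lsp1 is deleted is not stated, so the signal left in KO cells is not assigned to a part of its transcript. Whether both arrays of a group stem from different animals is not stated, so whether the spread behind the p-values holds differences between animals is not known. In KO cells the replicates differed in markers of other blood cells in both conditions, as given below. The smallest p of an exact permutation test at this size is 0.333.

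T cell markers were present throughout: all 14 of a T cell list were well above background on all 8 arrays, with a summed level (log2) of 9.34 to 9.87. This was 9.56 and 9.34 in stimulated KO cells against 9.49 and 9.57 in stimulated WT cells. In KO medium it was 9.87 and 9.47 against 9.73 and 9.77 in WT medium, so KO replicate 2 was lowest in each condition. KO replicate 2 stood apart in both conditions through markers of other blood cells. The summed level of 12 measured of 14 neutrophil markers was 7.24 and 8.79 in stimulated KO cells against 7.18 and 7.16 in stimulated WT cells, and 7.57 and 9.58 in KO medium against 7.99 and 7.42 in WT medium. That of 12 measured of 13 erythroid and platelet markers was 4.37 and 7.43 in stimulated KO cells against 5.54 and 4.58 in stimulated WT cells, and 4.38 and 7.32 in KO medium against 5.37 and 4.68 in WT medium. Both lists were highest on the replicate 2 arrays of KO cells. The neutrophil sums include Csf3r, which read 6.63 to 7.66 over all arrays, so they understate the change of the other markers. The neutrophil median against the WT medium mean was 3.41 on stimulated KO replicate 2 and 4.22 on KO medium replicate 2. On the other arrays it ran from -1.16 to 0.29. B cell markers (13 of 14 with a value on all arrays) had lower summed levels in KO than in WT cells within each condition. Single genes could overlap between genotypes, as Cd22 did after stimulation and Vpreb3 and Blnk did in medium. The summed level of the 13 was 4.82 and 4.91 in stimulated KO cells against 5.64 and 5.43 in stimulated WT cells. It was 5.49 and 5.60 in KO medium against 6.05 and 5.83 in WT medium. Monocyte, macrophage and dendritic cell markers (13 of 14) had summed levels of 7.29 to 7.60, which rest largely on Siglech (7.24 to 7.55). Gene by gene, their median against the WT medium mean was 0.68 on stimulated KO replicate 2 and 0.66 on KO medium replicate 2, and -0.19 to 0.05 on the other arrays. Csf1r, the receptor of a macrophage growth factor, read 3.55 and 3.84 on these 2 arrays and 1.12 to 1.65 on the others. Natural killer cell markers (11 of 11) spanned 6.04 to 6.43 over all arrays. Their median against the WT medium mean was -0.63 and -0.66 in stimulated KO cells against 0.01 and -0.30 in stimulated WT cells. It was -0.31 and -0.43 in KO medium against 0.06 and -0.06 in WT medium. Mmp8 and Retnlg among the neutrophil markers, Hbb-b1 and Cd68 were not measured by a probe that passed. In such bulk RNA, fewer cells of a type and less RNA per cell cannot be told apart.

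Stimulation raised the channel gene Orai1 in both genotypes, and Orai1 was the only member of the 9 called in either in the main fit. Its probe read 2.16 and 2.27 in stimulated KO cells, against 1.42 and 1.22 in KO medium. It read 2.16 and 2.19 in stimulated WT cells, against 1.16 and 1.40 in WT medium. All 4 stimulated arrays therefore lay above all 4 medium arrays, and the genotypes overlapped within each condition. The log2 fold change was 0.89 ± 0.13 (SE, 2 arrays a group) in KO cells, a 1.86-fold rise (95% interval 0.56 to 1.22, limma adjusted p = 0.0155). In WT cells it was 0.89 ± 0.13, a 1.85-fold rise (0.56 to 1.22, limma adjusted p = 0.0160). The 1 member called stands beside 8.03% of all genes called in KO cells and 10.3% in WT cells, with increases at 5.79% in KO and 6.38% in WT cells and decreases at 2.23% and 3.88%. A second Orai1 probe read 1.20 and 1.25 in stimulated KO cells against 0.63 and 0.41 in KO medium, with 1.34 and 1.40 in stimulated WT cells against 0.90 and 0.57 in WT medium. It was higher by 0.70 in KO and 0.63 in WT cells, with adjusted p over all 37257 probes of 0.0686 and 0.0711, where the brighter probe had 0.0270 and 0.0258. Without both KO replicate 2 arrays the change in KO cells was 0.74 (adjusted p = 0.126), and with KO arrays alone it stayed 0.89 (adjusted p = 0.124). Leaving out single arrays ended the KO call for KO medium replicate 2 (adjusted p = 0.0801), stimulated KO replicate 2 (0.0815) and stimulated WT replicates 1 and 2 (0.0521 each), and the WT call for WT medium replicate 1 (0.0958) and stimulated WT replicates 1 and 2 (0.116 each).

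**Figure D1:**
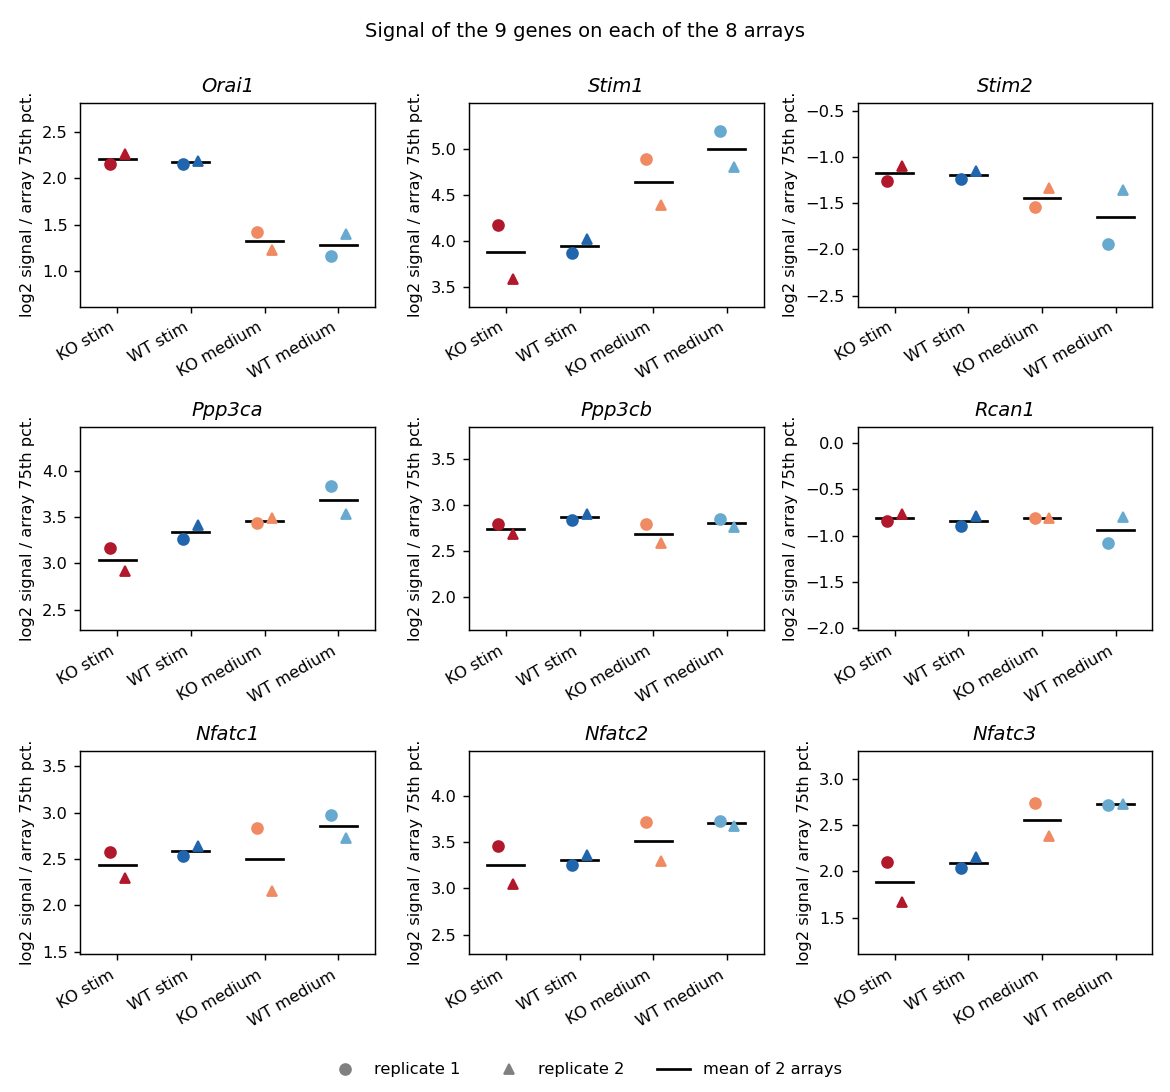
Normalized log2 signal of the 9 genes on each of the 8 arrays, a panel a gene, with stimulated groups left of medium and KO left of WT; circles are replicate 1, triangles replicate 2 and bars group means. Orai1 shows all 4 stimulated arrays (2.16 to 2.27) above all 4 medium arrays (1.16 to 1.42), whereas the groups of Rcan1 overlap.

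Stim1, the main sensor of store calcium, had lower values after stimulation in both genotypes, without a call. It read 4.17 and 3.59 in stimulated KO cells, against 4.89 and 4.39 in KO medium. It read 3.87 and 4.02 in stimulated WT cells, against 5.19 and 4.81 in WT medium. No stimulated array reached any medium array of either genotype. The difference was -0.76 ± 0.27 in KO cells (95% interval -1.41 to -0.11, limma adjusted p = 0.148) and -1.05 ± 0.27 in WT cells (-1.71 to -0.40, adjusted p = 0.0601). The second Stim1 probe differed by -0.77 and -1.04. The WT difference kept its size of -1.05 without both KO replicate 2 arrays and had an adjusted p of 0.0280 there. It was called in 10 of 18 alternative settings, the KO difference in 1 of 18. The 1 setting for KO cells was a fit with a replicate term within each genotype (limma adjusted p = 0.0379), where the WT difference had 0.0167.

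Stim2, the sensor that responds to small losses of store calcium, lay at -1.26 and -1.09 in stimulated KO cells against -1.54 and -1.34 in KO medium. It lay at -1.24 and -1.15 in stimulated WT cells against -1.94 and -1.36 in WT medium. The stimulated arrays were above the medium arrays in both genotypes, by 0.26 ± 0.21 in KO (limma adjusted p = 0.481) and 0.46 ± 0.21 in WT cells (adjusted p = 0.200), within what the spread between arrays allows. Of the 3 entry genes, then, the channel gene passed the test in the main fit and the sensors did not.

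**Figure D2:**
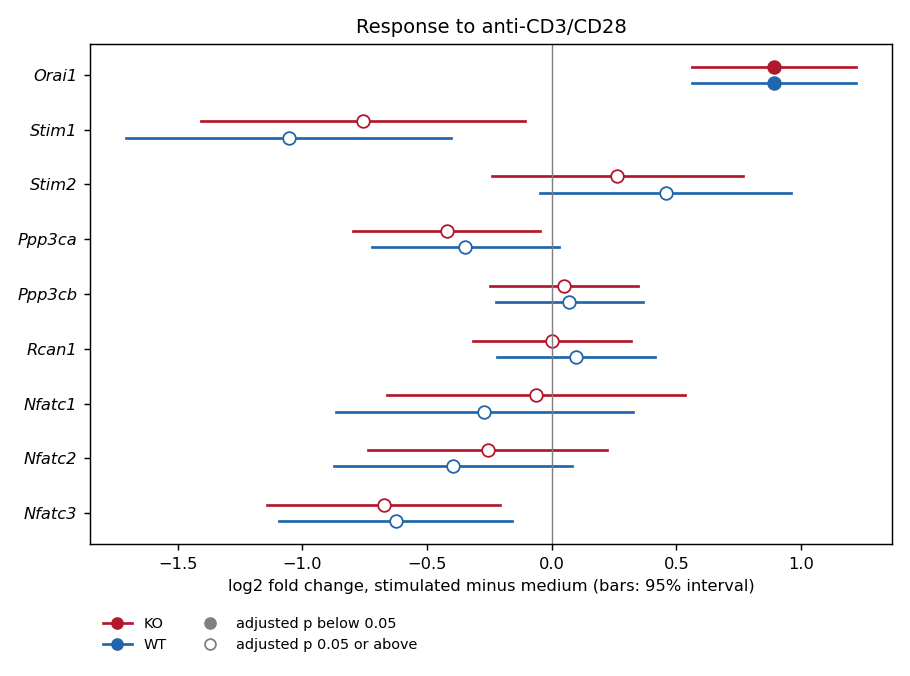
Log2 fold change on stimulation for each of the 9 genes, in KO (red, upper) and WT cells (blue, lower), with bars for the 95% interval and filled points for an adjusted p below 0.05. Orai1 alone is filled, at 0.89 in both genotypes, and the intervals of KO and WT overlap for all 9 genes.

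Calcineurin is built of a catalytic A subunit and a regulatory B subunit, and Ppp3ca and Ppp3cb encode the alpha and beta forms of the catalytic one. Ppp3ca read 3.16 and 2.92 in stimulated KO cells against 3.44 and 3.49 in KO medium. It read 3.26 and 3.42 in stimulated WT cells against 3.83 and 3.54 in WT medium. The stimulated arrays were below the medium arrays of their genotype, by -0.42 ± 0.15 in KO (95% interval -0.80 to -0.05, limma adjusted p = 0.158) and -0.35 ± 0.15 in WT cells (adjusted p = 0.194), and neither was called.

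Ppp3cb overlapped between the conditions in both genotypes. Its values were 2.79 and 2.69 in stimulated KO cells against 2.79 and 2.58 in KO medium, with 2.84 and 2.90 in stimulated WT cells against 2.84 and 2.76 in WT medium. The differences were 0.05 ± 0.12 (limma adjusted p = 0.840) and 0.07 ± 0.12 (adjusted p = 0.738). Rcan1 encodes a protein that binds and restrains calcineurin and is itself a known target of NFAT in several cell types. It read -0.84 and -0.77 in stimulated KO cells against -0.81 and -0.81 in KO medium. It read -0.90 and -0.79 in stimulated WT cells against -1.08 and -0.80 in WT medium. Stimulated and medium arrays overlapped in both genotypes, and the change was 0.00 ± 0.13 in KO (95% interval -0.31 to 0.32, limma adjusted p = 0.994) and 0.10 ± 0.13 in WT cells (-0.22 to 0.41, adjusted p = 0.667). Which of the 2 Rcan1 starts printed above the probe follows was not tested.

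The NFAT factors did not pass the test in either genotype in the main fit. Nfatc3, a family member present in resting T cells, came nearest. It read 2.10 and 1.67 in stimulated KO cells against 2.74 and 2.38 in KO medium, with 2.03 and 2.16 in stimulated WT cells against 2.71 and 2.73 in WT medium. Every stimulated array was below every medium array, by -0.67 ± 0.19 in KO (95% interval -1.14 to -0.21, limma adjusted p = 0.0920) and -0.63 ± 0.19 in WT cells (-1.09 to -0.16, adjusted p = 0.0928). A second Nfatc3 probe differed by -0.45 in KO and -0.55 in WT cells. Without both KO replicate 2 arrays the WT difference had an adjusted p of 0.0280 and the KO difference, then -0.63, one of 0.117.

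Nfatc2, the NFAT1 protein abundant in resting T cells, read 3.46 and 3.05 in stimulated KO cells against 3.72 and 3.30 in KO medium. It read 3.25 and 3.36 in stimulated WT cells against 3.73 and 3.68 in WT medium. KO arrays overlapped between the conditions and WT arrays did not, and the differences were -0.26 ± 0.20 (limma adjusted p = 0.468) and -0.40 ± 0.20 (adjusted p = 0.236). A second, dim probe, well above background on 7 of 8 arrays, differed by 0.01 in KO and -1.17 in WT cells.

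Nfatc1 encodes NFAT2, of which T cell activation is known to induce a short isoform, and its probes went opposite ways. The brighter probe, A_51_P517870, read 2.58 and 2.29 in stimulated KO cells against 2.84 and 2.16 in KO medium, with 2.53 and 2.64 in stimulated WT cells against 2.98 and 2.72 in WT medium. Its change was -0.06 ± 0.24 in KO (95% interval -0.66 to 0.53, limma adjusted p = 0.904) and -0.27 ± 0.24 in WT cells (-0.87 to 0.33, adjusted p = 0.501). The other probe, A_51_P220135, annotated to a different RefSeq transcript of the gene, read 1.56 and 1.63 in stimulated KO cells against 1.18 and 0.97 in KO medium, with 1.56 and 1.55 in stimulated WT cells against 1.18 and 1.27 in WT medium. On it all 4 stimulated arrays exceeded all 4 medium arrays, by 0.52 in KO and 0.33 in WT cells, and neither passed over all probes (limma adjusted p = 0.0895 and 0.172). With the mean over both probes the change was 0.23 in KO and 0.03 in WT cells. The direction for Nfatc1 therefore turned with the probe, and no direction is given for the gene. Which isoforms each probe detects was not tested.

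**Figure D3:**
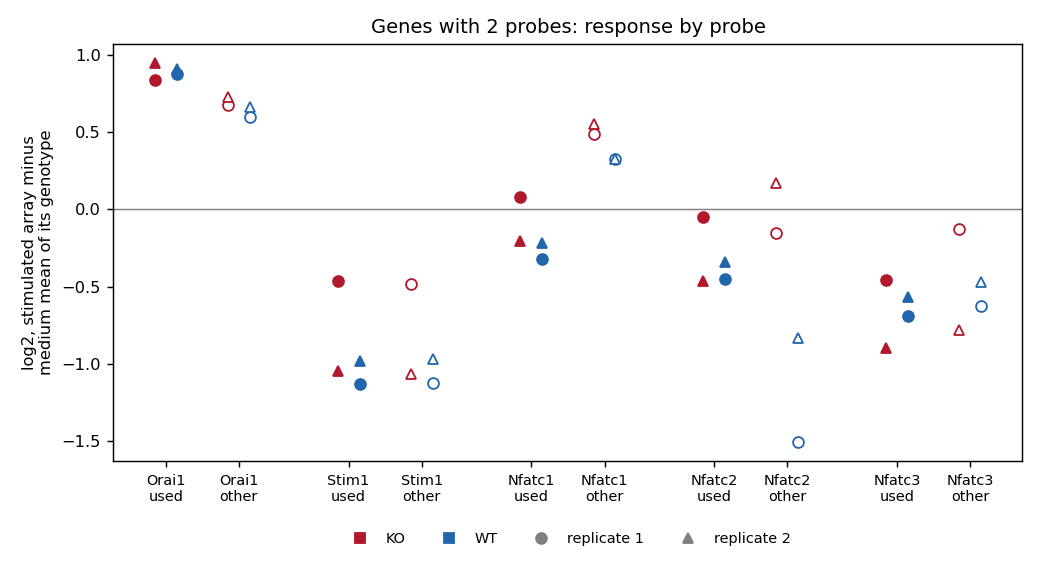
Log2 signal of each stimulated array minus the medium mean of its genotype, for both probes of the 5 genes with 2 probes; KO is red and left of WT (blue), circles are replicate 1 and triangles replicate 2, and filled symbols are the brighter probe used for the gene. The other Nfatc1 probe lies above 0 on all 4 arrays (means 0.52 in KO and 0.33 in WT cells), where the brighter one has means of -0.06 and -0.27.

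Over the 9 genes, the median log2 fold change was -0.06 in KO and -0.27 in WT cells, beside medians over all genes of -0.08 and -0.09. In KO cells the arrays of both conditions did not overlap for 2 members that were higher (Orai1 and Stim2) and 3 that were lower (Stim1, Ppp3ca and Nfatc3), where 22.9% and 28.5% of all genes did the same. In WT cells 2 were higher (Orai1 and Stim2) and 5 lower (Stim1, Ppp3ca, Nfatc1, Nfatc2 and Nfatc3), against 27.4% and 42% of all genes. Nfatc1 is among the 5 on the probe used only, since its other probe was higher without overlap in both genotypes. At an unadjusted p below 0.05 there were 4 members in KO cells (Orai1, Stim1, Ppp3ca and Nfatc3) and 3 in WT cells (Orai1, Stim1 and Nfatc3), against 25.4% and 29.5% of all genes.

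No difference between KO and WT cells was called for the 9 genes. After stimulation 0 members were called, where 0.0198% of all genes were, and 0 had an unadjusted p below 0.05, where 5% of all genes did. KO minus WT then ran from -0.30 ± 0.15 for Ppp3ca (95% interval -0.67 to 0.08, limma adjusted p = 0.938) to 0.04 ± 0.13 for Rcan1 (-0.28 to 0.36, adjusted p = 0.967). Orai1 differed by 0.04 ± 0.13 (-0.29 to 0.36). The stimulated KO arrays were below the WT arrays without overlap for Ppp3ca and Ppp3cb, as for 24.3% of all genes.

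In medium 0 members were called, where 0.00661% of all genes were, and 0 had an unadjusted p below 0.05, where 5.71% of all genes did. The differences ran from -0.36 ± 0.27 for Stim1 (95% interval -1.01 to 0.29, limma adjusted p = 0.738) to 0.21 ± 0.21 for Stim2 (-0.30 to 0.71, adjusted p = 0.766). Nfatc1 differed by -0.36 ± 0.24 (-0.95 to 0.24). Ppp3ca alone did not overlap, lower in KO, where 21.2% of all genes were.

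The difference between the responses, KO minus WT, was called for 0 members (0.00661% of all genes) and had an unadjusted p below 0.05 for 0 (3.01% of all genes). It ran from -0.19 for Stim2 to 0.30 for Stim1 (95% interval -0.62 to 1.22), was 0.00 for Orai1 (-0.46 to 0.46), and all limma adjusted p were 0.9999. The 3 comparisons share arrays, and intervals of this width do not show that the genotypes act alike.

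**Figure D4:**
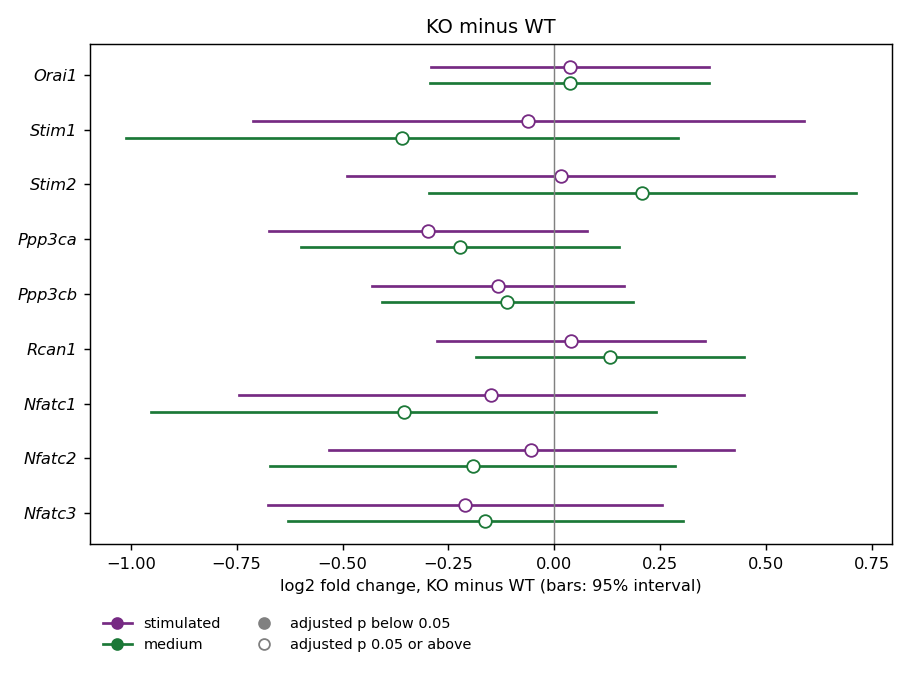
KO minus WT log2 difference of the 9 genes after stimulation (purple, upper) and in medium (green, lower), with bars for the 95% interval. All points are open (adjusted p of 0.05 or above) and all intervals include 0, from -0.36 for Stim1 in medium to 0.21 for Stim2 in medium.

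On the probes used, Stim1 and the 3 NFAT genes were lower on replicate 2 than on replicate 1 of KO cells in both conditions. Replicate 2 minus replicate 1 was -0.58 in stimulated KO cells and -0.50 in KO medium for Stim1, -0.29 and -0.68 for Nfatc1, -0.41 and -0.42 for Nfatc2, and -0.44 and -0.36 for Nfatc3. The second probes of Stim1 and Nfatc3 were also lower on replicate 2 in both conditions. Those of Nfatc1 and Nfatc2 were lower in KO medium but higher in stimulated KO cells, 1.63 against 1.56 and -4.625 against -4.954. The KO replicate 2 arrays had the high neutrophil, erythroid and monocyte markers and the lowest T cell sums of their condition, given above. The part of other cells in the member values was not tested. Without both KO replicate 2 arrays, KO minus WT after stimulation was 0.23 for Stim1, 0.15 for Nfatc2 and 0.01 for Nfatc3, against -0.06, -0.05 and -0.21 with all arrays. None was called either way. Over the 9 genes the root mean square SD between the arrays of a group (log2) was 0.223 for stimulated KO, 0.0787 for stimulated WT, 0.251 for KO medium and 0.208 for WT medium cells. Over all genes it was 0.454, 0.250, 0.431 and 0.252 in that order.

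The wider pathway was read through 49 other genes, all measured. In KO cells 2 rose, 1 fell and 46 were not called, with a median of -0.16, where 8.03% of all genes were called. In WT cells 2 rose, none fell at an adjusted p below 0.05 and 47 were not called, with a median of -0.20, where 10.3% of all genes were called. The counts are thus not read as a trait of the pathway. The counts without both KO replicate 2 arrays were 2 in KO and 13 in WT cells, beside 450 and 2743 of all 15139 genes. Ppp3cc, the gamma form of the calcineurin catalytic subunit, rose in both genotypes. It read 5.08 and 4.53 in stimulated KO cells against 2.87 and 2.61 in KO medium, with 5.16 and 5.15 in stimulated WT cells against 3.13 and 2.98 in WT medium. That was 2.06 ± 0.20 in KO (4.18-fold, limma adjusted p = 0.00457) and 2.10 ± 0.20 in WT cells (4.28-fold, adjusted p = 0.00434). Among the catalytic genes, then, the gamma form was called and the alpha and beta forms among the 9 were not.

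Lcp2, which encodes the adaptor SLP-76 that helps recruit phospholipase C gamma, also rose in both. It read 0.67 and 0.84 in stimulated KO cells against -0.04 and -0.38 in KO medium, with 0.55 and 0.61 in stimulated WT cells against -0.35 and -0.24 in WT medium. The change was 0.96 ± 0.15 in KO (limma adjusted p = 0.0167) and 0.87 ± 0.15 in WT cells (adjusted p = 0.0223). Saraf, which encodes a protein that inactivates store-operated entry, fell in KO cells. It read 5.73 and 5.42 in stimulated KO cells against 6.60 and 6.40 in KO medium, with 5.86 and 5.90 in stimulated WT cells against 6.39 and 6.62 in WT medium. The change was -0.92 ± 0.16 in KO (limma adjusted p = 0.0226) and -0.63 ± 0.16 in WT cells, where it was not called (adjusted p = 0.0583). The KO changes without both KO replicate 2 arrays were 0.71 for Lcp2 (adjusted p = 0.100) and -0.87 for Saraf (0.0976), and the WT change of Saraf then had an adjusted p of 0.0395. Over 18 alternatives the change of Saraf was called in 11 for KO and in 8 for WT cells. Leaving out single arrays ended the KO call of both for KO medium replicate 2, stimulated KO replicate 2 and either stimulated WT array, that of Saraf also for KO medium replicate 1 (adjusted p from 0.0519 to 0.0959), and the WT call of Lcp2 for each of the 4 WT arrays (0.0679 to 0.144).

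By group, 1 of 10 antigen receptor and proximal signalling genes was called in each genotype (Lcp2), 1 of 5 calmodulin and other calcineurin genes (Ppp3cc), and 1 of 6 partners of the entry channel in KO cells (Saraf). None was called of 4 genes of calcium release, 7 pumps and potassium channels, 7 calcineurin inhibitors and immunophilins, 7 NFAT kinases and scaffolds, or 3 other NFAT factors and partners. Over all genes the share called was 8.03% in KO and 10.3% in WT cells. The channel gene Orai2 differed by -0.81 in KO and -0.91 in WT cells (limma adjusted p = 0.104 and 0.0680). Kcna3, the potassium channel that sustains the drive for calcium, differed by 0.65 and 0.59, and neither was called. In the comparisons between genotypes 0 of the 49 were called with all arrays. Without stimulated KO replicate 2, Akap5, which encodes an anchoring protein of calcineurin, was called for KO minus WT after stimulation (3.59, limma adjusted p = 0.0285), with 1 KO array left. With all arrays it differed by 1.63 (adjusted p = 0.938), and read -1.65 and -5.58 in stimulated KO cells against -5.13 and -5.36 in stimulated WT cells, so 1 array stood apart. Akap5 was named after its values were seen.

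Of 18 genes known as NFAT targets, 13 rose and 0 fell in each genotype, where 5.79% of all genes rose in KO and 6.38% in WT cells. The list was chosen with earlier results of these data known. Ptgs2 and Egr3 passed the filter on dim probes only through stimulated groups, which favoured a rise. With the filter on all arrays, 11 of 15 rose in KO and 10 of 15 in WT cells. The median of the 18 was 3.83 in KO and 3.42 in WT cells, or 3.52 and 3.33 with genes near background set at their bounds. Il2, the T cell growth factor, rose by 6.79 ± 0.32 in KO and 5.87 ± 0.32 in WT cells, and Csf2, which encodes GM-CSF, by 6.65 ± 0.24 and 6.66 ± 0.24. The type 2 cytokine gene Il13 was at least 222-fold higher in stimulated KO cells than in KO medium, where it was not well above background, and rose by 7.74 ± 0.51 in WT cells. Il5, Fasl, Cd40lg, Ctla4 and Pdcd1 were not called. With both KO replicate 2 arrays left out, 13 target genes were called in KO and 14 in WT cells.

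**Figure D5:**
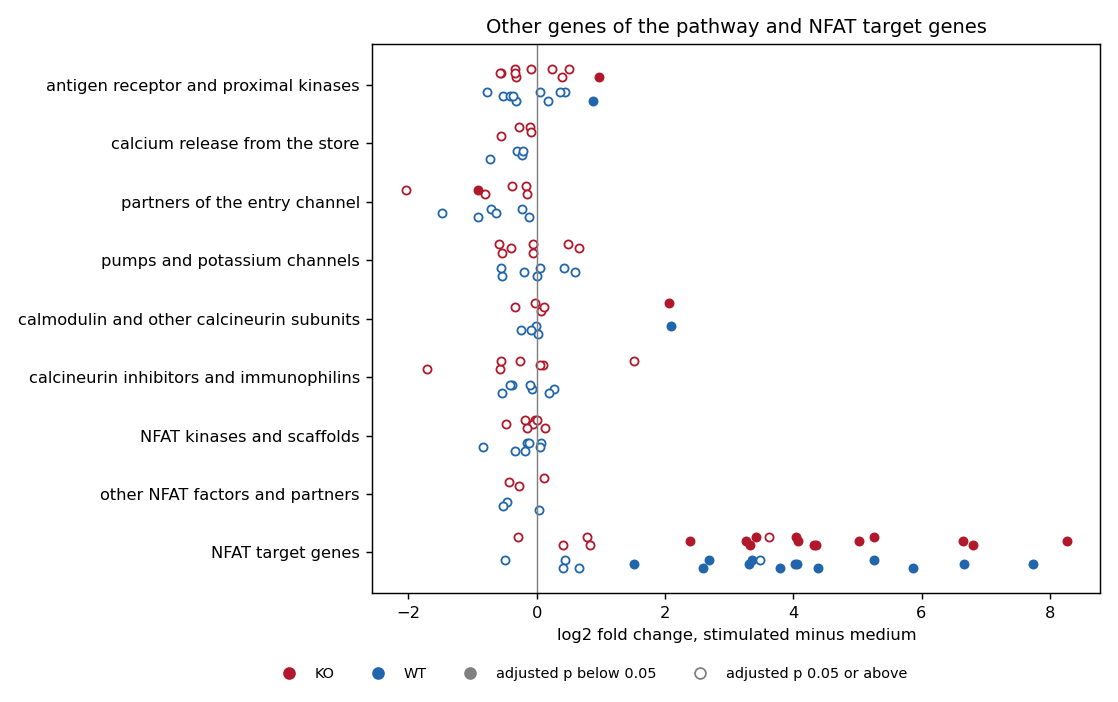
Log2 fold change on stimulation of the 49 pathway genes by group, and of 18 NFAT target genes in the lowest row, for KO (red, upper) and WT cells (blue, lower); filled points have an adjusted p below 0.05. Ppp3cc stands highest of the 49 (2.06 in KO and 2.10 in WT cells), and the median of the 49 is -0.16 in KO and -0.20 in WT cells.

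The genes nearest in pattern were sought for Rcan1 and Nfatc1. Likeness was the root mean square difference (log2) of values centred on each gene's mean, over 8 arrays and 15114 genes. Among the nearest to Rcan1 were Csl (0.0303), Dync1li2 (0.0310), Ndufa10 (0.0329) and Akap10 (0.0387). Nearest to Nfatc1 were Gpsm1 (0.0508), Iffo2 (0.0557), Gatad2a (0.0583), Plcxd2 (0.0620) and Neurl4 (0.0671). None of these 9 genes was called on stimulation in either genotype, which follows from their choice by likeness to members not called. The likeness is a description of 8 arrays.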

How the data were processed

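Total RNA (integrity number above 9.5 in all samples, per the labels' protocols) was Cy3-labelled for one-colour Agilent arrays. The authors deposited linear intensities per spot. Per the file headers they came from Feature Extraction 10.7.1.1, with background already subtracted in the processed signal, and the array grid names the build mm9. A series table deposited beside them equals the median intensity of the scanner, with 0 spots differing.

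From these, log2 of the processed signal minus the array's 75th percentile over non-control probes was computed (75th percentiles 1207 to 1473). Control and outlier spots were left out. Kept were the 37257 of 55681 probes that exceeded background clearly on both arrays in 1 group or more, and per array 58.4% to 69.2% of probes did so. Accessions named 26056 probes through RefSeq, and each gene took its brightest probe. A mean per group was fitted with limma 3.58.1 in R 4.3.3 (4 residual degrees of freedom, prior 2.12). P-values are two-sided. The fit was run on simulated data with independent noise and the same SD for a gene in all groups. The KO arrays spread more than the WT arrays, and same-numbered KO arrays deviated together. The simulation therefore does not test the fit under these features. The number of arrays limits the precision.

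The members, gene lists, tests and alternatives were chosen with earlier results of these data known. By rule, the text names the members, Lsp1, up to 3 called genes a list and direction, and the 5 genes nearest Nfatc1 and Rcan1, of which 1 is not reported here. Orai2, Kcna3 and the target genes not called were named after their values were seen. A gene not well above background in a group has a bound there, from the higher of the array's lowest well-above signal and its own. All arrays share 1 slide and 1 scan day. On it, conditions lie in different rows and genotypes in different columns, so group and position on the slide cannot be told apart. The files hold no mean signal, so the normexp alternative used the median signal (offset 50). Same-numbered arrays were not treated as pairs in the main fit, since the labels give no shared source. Fits with a replicate term are given below.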

Additional observations from a re-analysis of the deposited data

How the results depend on the processing

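Alternatives were quantile normalization, normexp with quantile, no filter, a filter on all arrays, the series table, the probe mean, the compared groups alone, both replicate blocks and each array left out. Added after seeing the data were omission of both KO replicate 2 arrays and the crossed pairing. Members called between genotypes or in the difference of responses were 0 in every alternative run for them. The block within genotype was not run between genotypes, the compared groups alone not for the difference of responses, and the crossed pairing only for KO minus WT after stimulation. On stimulation in KO cells, where 1 was called, there were 2 with normexp, 0 with the compared groups alone, 0 without both KO replicate 2 arrays, and 0 to 2 leaving out single arrays. In WT cells, where 1 was called, there were 2 with quantile, the filter on all arrays or the series table, 3 with normexp, the compared groups alone or without both KO replicate 2 arrays, and 0 to 2 leaving out single arrays. Besides Orai1, Stim1 and Nfatc3 account for the added calls. The cause was not tested. Of the members' log2 changes, 141 of 162 in KO and 143 of 162 in WT cells kept their direction and side of the threshold, as did 136 of 153 after stimulation and 144 of 153 in medium between genotypes, and 131 of 153 differences of responses.

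With the replicate number as a replicate block, members called were 1 in KO and 2 in WT cells, and with the block within genotype 3 and 3. The block within genotype added Stim1 (adjusted p = 0.0379 in KO and 0.0167 in WT cells) and Nfatc3 (0.0189 and 0.01999). Deviations of same-numbered arrays correlated at 0.74 between stimulated and medium KO, 0.16 between stimulated and medium WT, -0.24 between stimulated KO and stimulated WT and -0.06 between KO and WT medium. Same-numbered arrays thus deviated together within KO and less so within WT cells, not between genotypes, and the labels do not say what a number marks. With 2 pairs, whether the numbers mark a shared source is not settled. Crossing the numbers for KO minus WT after stimulation called 0 genes (790 at an unadjusted p below 0.05).

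Genes called over all 15139 were 1215 in KO cells, but 809 with no filter, 37 with KO arrays alone, 2778 with the block within genotype, 450 without both KO replicate 2 arrays and 361 to 1487 leaving out single arrays. They were 1554 in WT cells, but 3010 with no filter, 2743 with WT arrays alone, 3515 with the block within genotype and 200 to 1768 leaving out single arrays. KO minus WT after stimulation called 3 genes, with 0 to 13 over the alternatives, KO minus WT in medium 1, with 0 to 2, and the difference of responses 1, with 0 to 3. Of the 49 pathway genes, 3 were called in KO cells, but 5 or 6 under 5 scalings, filters or probe rules, 0 with KO arrays alone and 12 with the block within genotype, and 1 to 6 leaving out single arrays. In WT cells 2 were called, but 5 to 9 under 4 of these, 13 with WT arrays alone and 18 with the block within genotype, and 1 to 4 leaving out single arrays. Between genotypes 0 were called, but 1 (Akap5) for KO minus WT after stimulation without stimulated KO replicate 2. NFAT targets called in KO cells were 13, but 6 with KO arrays alone.

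Directions turned for small values. On stimulation in KO cells, Ppp3cb was -0.011 with normexp and -0.0046 without both KO replicate 2 arrays, and Rcan1 -0.025 with the series table and -0.031 without those arrays. With the probe mean, Nfatc1 was 0.23 in KO and 0.028 in WT cells, KO minus WT after stimulation -0.054 for Orai1 and 0.18 for Nfatc2, KO minus WT in medium -0.090 for Orai1, and the difference of responses 0.024 for Nfatc3. Stim2 after stimulation was -0.026 with normexp and -0.046 with the series table. Without both KO replicate 2 arrays, KO minus WT after stimulation was -0.020 for Orai1, 0.23 for Stim1, -0.069 for Stim2, 0.15 for Nfatc2 and 0.0081 for Nfatc3, in medium 0.017 for Nfatc2 and 0.016 for Nfatc3, and the difference of responses -0.15 for Orai1 and 0.072 for Ppp3ca. The cause was not tested.

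Leaving out single arrays gave ranges that include 0. On stimulation in KO cells these were -0.057 to 0.15 for Ppp3cb, -0.035 to 0.039 for Rcan1 and -0.40 to 0.28 for Nfatc1, and in WT cells -0.042 to 0.23 for Rcan1. KO minus WT after stimulation ran from -0.020 to 0.093 for Orai1, -0.35 to 0.23 for Stim1, -0.069 to 0.099 for Stim2, -0.014 to 0.092 for Rcan1, -0.26 to 0.15 for Nfatc2 and -0.43 to 0.0081 for Nfatc3. In medium it ran from -0.084 to 0.16 for Orai1, -0.080 to 0.50 for Stim2, -0.0052 to 0.27 for Rcan1, -0.40 to 0.017 for Nfatc2 and -0.34 to 0.016 for Nfatc3. The difference of responses ran from -0.12 to 0.12 for Orai1, -0.48 to 0.095 for Stim2, -0.22 to 0.073 for Ppp3ca, -0.13 to 0.084 for Ppp3cb, -0.23 to 0.044 for Rcan1, -0.13 to 0.55 for Nfatc1, -0.071 to 0.35 for Nfatc2 and -0.27 to 0.17 for Nfatc3.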
